A study of Arabidopsis thaliana with 8 samples.

Results

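Transcript levels of dark-grown Arabidopsis thaliana seedlings that carry mutations in both phytochrome A and phytochrome B were compared with those of wild-type (WT) seedlings on Affymetrix ATH1 arrays, which read each transcript near its 3' end with 1 or more probe sets. The arrays were chosen by genotype alone, as both arrays of the double mutant that carries phyA-211 and phyB-9 (here phyAphyB) and both arrays of WT, which makes 4 of the 8 arrays in the series. The other 4 arrays came from the single mutants phyA-211 (phyA) and phyB-9 (phyB), 2 for each, and are used here to set the double mutant beside each parent allele. All genotypes were in the Columbia accession and had the same treatment. Seeds were chilled for 5 days at 6 degrees C, given 1 h of white light, and grown in darkness for 3 days at 22 degrees C on 0.8% agar. Total RNA of the seedlings was then extracted with a column kit. Each gene was represented by 1 mutant allele, so an effect of the allele and one of another change in the same line cannot be told apart. The labels do not call a genotype's 2 arrays separate cultures, so the p-values cover array-to-array spread that may be technical only.

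Phytochromes let plants sense red and far-red light, and they switch between an inactive and an active form. Phytochrome A builds up in darkness and is broken down quickly in light, whereas phytochrome B is stable and is the main receptor of red light. In their active form both enter the nucleus and remove or inhibit the phytochrome-interacting factors, transcription factors that keep a seedling in its dark-grown form, with a long hypocotyl, closed cotyledons and plastids without chlorophyll. Phytochromes activated in the seed also promote germination, largely through gibberellin.

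Values are intensities, 1 per probe set and array, scaled by the authors to a common mean on every array. They are given as deposited or as log2(intensity + 39), where 39 is the 10th percentile of all values, and a change is the phyAphyB mean minus the WT mean on that log2 scale, on which changes of dim probe sets come out too small. Of 22746 probe sets without controls, the 40% with the lowest mean level were left out and 13647 were tested. The array annotation tied 7349 of those to exactly 1 gene, and the other 6298 are given by probe set number only. No probe set was annotated as PHYA or PHYB, so the mutated genes were not read by name. With 2 arrays against 2, an exact two-sided permutation test of a single gene cannot give a p below 0.333, so the tests are those of limma, a linear model that was fitted to all 8 arrays and shares the spread across probe sets.

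The 4 arrays differed in ways that genotype does not account for. The 3'/5' signal ratio of the GAPDH control was 2.31 and 1.96 in phyAphyB, against 16.7 in WT replicate 1 and 2.19 in WT replicate 2, and that of the actin control was 8.28 and 7.78 in phyAphyB, against 46.7 and 10.8 in WT. Such a ratio is high where RNA is broken or copied mostly from its 3' end. The signal of added control transcripts was 3.02 times that of the median array in WT replicate 1. It was 1.04 times in WT replicate 2, and 0.905 and 1.17 times in phyAphyB. WT replicate 1 stood apart, and many results that rest on it are given with and without it. How far its RNA quality took part in them was not tested. The 2 phyAphyB arrays correlated at 0.910 and the 2 WT arrays at 0.900 across probe sets, while phyAphyB replicate 2 and WT replicate 2 correlated at 0.957. In those phyAphyB arrays 1944 probe sets (14.2%) differed by over 1 log2 unit from each other, and in the WT arrays 2499 (18.3%) did. Arrays of the same genotype were thus no more alike than some arrays of different genotypes. PORB, a protochlorophyllide oxidoreductase, stood at 15.63 and 15.63 in phyAphyB, against 15.85 and 15.40 in WT. ICL, isocitrate lyase of the glyoxylate cycle that turns seed oil into sugar, had 16.03 and 16.27 in phyAphyB, against 15.81 and 15.88 in WT. As a check of the tissue, markers that the annotation names were counted. Of these, 1 of 4 pollen and flower genes, 4 of 5 root genes and all 3 green leaf genes passed the filter on low values. In whole seedlings, fewer cells of a type and less RNA per cell cannot be told apart.

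Only 3 of the 13647 probe sets (0.022%) differed between phyAphyB and WT at a limma adjusted p under 0.05, of which 2 were higher in phyAphyB (0.0147%) and 1 was lower (0.00733%). With WT replicate 2 left out, so that WT replicate 1 stood for WT alone, 30 were called, 29 of them higher. Leaving out WT replicate 1 and phyB replicate 2, whose GAPDH ratios were high, gave 1 call. All 3 lack a gene name in the annotation used here. Probe set 264508_at had intensities of 28 and 20 in phyAphyB, against 34226 and 33678 in WT. Both phyAphyB arrays lay below the pseudocount of 39 and both WT arrays were among bright signals, with no overlap. On the log2 scale the means were 5.97 ± 0.13 in phyAphyB and 15.05 ± 0.02 in WT (SD, n = 2 each), and it fell by 9.08 (SE 0.69, limma adjusted p = 0.00092). The second called probe set, 248066_at, ran the other way, at intensities of 3678 and 4282 in phyAphyB, against 12 and 35 in WT. Its log2 means were 11.97 ± 0.15 in phyAphyB and 5.94 ± 0.38 in WT (SD, n = 2 each), and it rose by 6.03 (SE 0.42, limma adjusted p = 0.00084). As 1 side of each of these 2 comparisons lay at or under the pseudocount, the size of both changes depends on it. The third, 253767_at, was bright in all arrays and had intensities of 49281 and 58898 in phyAphyB, against 9325 and 9784 in WT. It rose by 2.49 (SE 0.30, limma adjusted p = 0.048), which is 5.62-fold on the log2(intensity + 39) scale. That call was lost without any 1 of the 8 arrays except WT replicate 2, at changes of 2.36 to 2.62 and adjusted p up to 1.0.

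**Figure D1:**
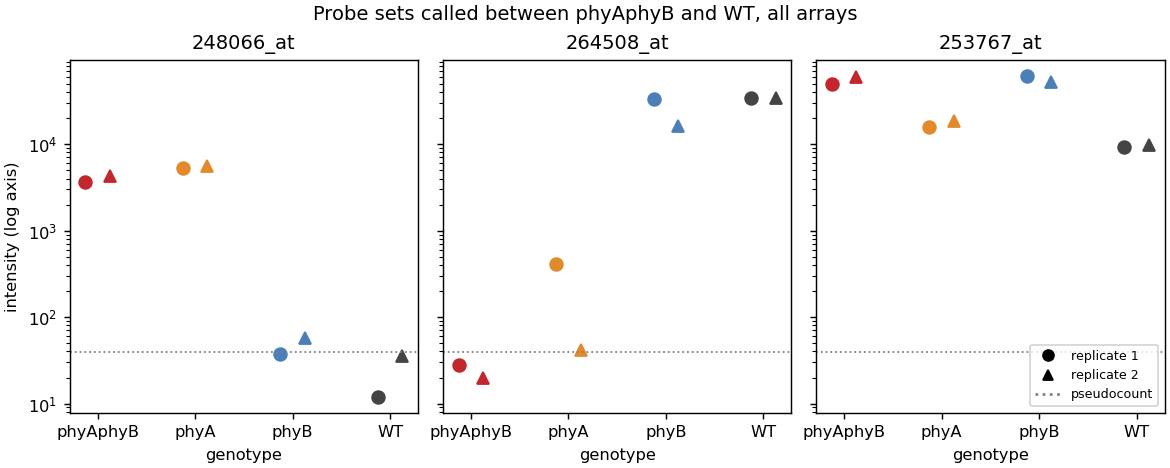
Intensity (log axis) of the 3 called probe sets in each array of phyAphyB, phyA, phyB and WT, with circles for replicate 1, triangles for replicate 2 and a dotted line at the pseudocount of 39. For 248066_at and 264508_at the phyAphyB and phyA arrays lie together, away from the phyB and WT arrays; for 253767_at the phyAphyB and phyB arrays lie between 49281 and 61093 and the WT arrays at 9325 and 9784.

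In the single mutants these 3 probe sets were not alike. The plot of intensities by array shows that 264508_at had intensities of 28 and 20 in phyAphyB and of 415 and 42 in phyA, against 32862 and 16365 in phyB and 34226 and 33678 in WT. Likewise, 248066_at had 3678 and 4282 in phyAphyB and 5317 and 5605 in phyA, against 37 and 58 in phyB and 12 and 35 in WT. Every array with the phyA-211 allele thus lay on 1 side at both probe sets. In phyA against WT they were the 2 probe sets called, 248066_at at 6.48 and 264508_at at -7.47 (limma adjusted p = 0.00042 and 0.0056). The test of phyAphyB against phyB compares no WT array. It uses the same phyAphyB arrays, though, and a spread drawn from all 8 arrays. In it these were again the 2 called (0.0147% of 13647). There 248066_at was higher by 5.54 (SE 0.42) and 264508_at lower, at -8.53 (SE 0.69), each at a limma adjusted p of 0.0016. Without phyB replicate 1 neither was called (limma adjusted p = 0.058 and 0.13), and without phyB replicate 2 and WT replicate 1 together 248066_at alone was (limma adjusted p = 0.034, against 0.065 for 264508_at). Against phyA the differences were -0.46 (SE 0.42) at 248066_at and -1.61 (SE 0.69) at 264508_at, both with an adjusted p of 1.0. Probe set 253767_at had 49281 and 58898 in phyAphyB, 15765 and 18668 in phyA and 61093 and 52253 in phyB, against 9325 and 9784 in WT. Its double mutant arrays lay within the range of the phyB arrays or just below it, at a difference of -0.07 from phyB (SE 0.30, adjusted p = 1.0), and above both phyA arrays, at a difference of 1.65 from phyA that was not called (SE 0.30, adjusted p = 1.0).

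The probe sets next in order of p, chosen after their values were seen, were again mostly unnamed. Of the 20 with the smallest p, 18 did not name 1 gene, and 17 of the 20 changes were positive. Probe set 258240_at had intensities of 6137 and 7438 in phyAphyB, against 464 and 1217 in WT, a change of 3.10 (SE 0.47, limma adjusted p = 0.21). Its intensities in the single mutants were also above both WT arrays, at 4429 and 4654 in phyA and 9301 and 5287 in phyB. A second kind of pattern, like that of 253767_at, was seen at 248125_at, with 22939 and 29706 in phyAphyB and 24828 and 33597 in phyB, against 5307 and 7467 in phyA and 7096 and 5706 in WT. The change in the double mutant was 2.03 (adjusted p = 0.30), beside -0.02 in phyA and 2.18 in phyB. At 265095_at the double mutant stood highest, with 2366 and 3877, against 1691 and 1620 in phyB, 541 and 628 in phyA and 724 and 604 in WT (change 2.13, adjusted p = 0.44). The converse held at 257809_at, with 24312 and 32248 in phyAphyB and 43138 and 34039 in phyA, against 10475 and 6907 in phyB and 6688 and 6828 in WT (change 2.04, adjusted p = 0.30). Probe set 259224_at had the same order, with 15887 and 20570 in phyAphyB and 21118 and 21903 in phyA, against 7030 and 7285 in phyB and 5049 and 5174 in WT (change 1.81, adjusted p = 0.30). None of these 5 was called with all arrays, and 258240_at was called without WT replicate 2 (3.76, limma adjusted p = 0.013). The single mutants share the WT arrays with the double mutant, so their changes against WT are not independent of each other.

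Across all probe sets tested most changes between the double mutant and WT were small. The median change was 0.04, and the median size of a change regardless of sign was 0.30. There were 7270 positive changes (53.3%) and 6377 negative ones. Larger changes leaned upward, with 490 above 1 and 128 below -1, and 26 above 2 and 2 below -2. That lean rested in part on WT replicate 1, without which 200 changes were above 1 and 175 below -1, and 6585 were positive and 7062 negative. Without WT replicate 2 the counts were 1660 above 1 and 633 below -1, without phyAphyB replicate 1 they were 1211 and 515, and without phyAphyB replicate 2 they were 448 and 317. An unadjusted p under 0.05 was reached by 487 probe sets (3.57%), 350 higher (2.56%) and 137 lower (1.0%) in phyAphyB, and 682.35 would reach it with no change at all. That count was 137 without WT replicate 1, 1540 without WT replicate 2, 550 without phyAphyB replicate 1 and 231 without phyAphyB replicate 2. Both phyAphyB arrays lay above both WT arrays at 2320 probe sets (17.0%) and below both at 1820 (13.3%), 4140 in all (30.3%). After quantile normalization the split was 2105 above and 2115 below, and after median centring, which moved the median change of all probe sets to -0.09, it was 1791 and 2365. The split of higher and lower probe sets thus turned with the scaling.

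**Figure D2:**
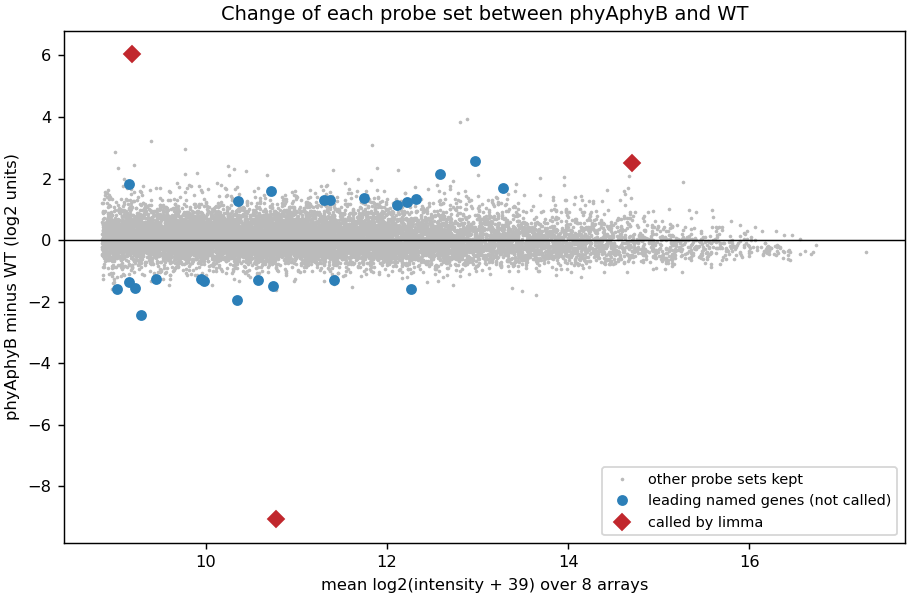
Change between phyAphyB and WT (log2 units) of each of the 13647 probe sets against its mean log2(intensity + 39) over the 8 arrays. Red diamonds are the 3 called probe sets, blue circles the leading named genes, none of them called, and grey points all others, whose median change is 0.04.

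Some of the largest changes rested on 1 array. At 265633_at, chosen after its values were seen, intensities were 10437 and 21491 in phyAphyB, against 61 in WT replicate 1 and 9840 in WT replicate 2. Probe set 246935_at had 8842 and 17596 in phyAphyB, against 49 and 8797 in the same order of WT arrays. Their changes of 3.92 (SE 1.59) and 3.83 (SE 1.58) came to 0.60 and 0.50 without WT replicate 1. Without WT replicate 2 they were 7.23 and 7.15, and both were called (limma adjusted p = 0.0023 and 0.0022). WT replicate 1 was also the only array of the 8 in which either was dim.

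None of the 7349 probe sets that name 1 gene was called by limma, with a smallest adjusted p of 0.72 and 241 at an unadjusted p under 0.05. At 1233 of them both phyAphyB arrays were above both WT arrays, and at 979 below. Of all 13647 probe sets tested, 17.0% lay above, 13.3% lay below and 3.57% had an unadjusted p under 0.05. The shares among named probe sets were close to these, so the counts do not set named genes apart. Among the named probe sets without overlap, the 12 genes with the smallest p in each direction are described next. They led without passing the test. The 12 on the higher side had changes of 1.13 to 2.57 (SE 0.34 to 0.70), each with an adjusted p of 1.0. Against the same WT arrays, changes of these 12 genes were 0.25 to 2.51 in phyA and 0.83 to 2.85 in phyB. All 12 were thus higher in the single mutants too. First by p was PAP85, a vicilin-like seed storage protein, at 13.79 and 14.30 in phyAphyB, against 12.22 and 12.51 in WT, a change of 1.68 (SE 0.45, limma adjusted p = 1.0). Beside it, the change was 1.72 in phyB and 0.25 in phyA against the same WT arrays, neither called. AT1G54870 stood at 13.51 and 13.98 in phyAphyB, against 10.16 and 12.20 in WT. Its change of 2.57 (SE 0.70) was 1.55 without WT replicate 1, whose level was the lower of the WT pair. Beside it, the change was 2.51 in phyA and 2.07 in phyB. AT1G76010 had 12.35 and 13.40 in phyAphyB, against 9.70 and 11.73 in WT. Against the same WT arrays its change was 2.16 (SE 0.62) in phyAphyB, 2.43 in phyA and 2.85 in phyB. Without WT replicate 1 the phyAphyB change was 1.14. It was called without WT replicate 2 (limma adjusted p = 0.048).

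Other leading genes were steadier between arrays. AT3G56350 stood at 11.86 and 11.88 in phyAphyB, against 10.61 and 10.51 in WT, a change of 1.31 (SE 0.37). AT4G15770 had 12.39 and 12.40 in phyAphyB, against 11.23 and 11.29 in WT, a change of 1.13 (SE 0.34). AT5G45690 had 11.57 and 11.22 in phyAphyB, against 9.96 and 9.65 in WT, and its change of 1.59 lay beside 1.73 in phyB and 0.32 in phyA. In each of these 3 the gap between the groups was wider than the gap within either group. The choice by groups that do not overlap and by small p favours such a gap, so it adds no support. The remaining 6 were AT2G27580 (1.31), AT5G37670 (1.82), AT3G20015 (1.37), AT2G39960 (1.25), AT3G01820 (1.28) and AT2G29660 (1.35), each a change in log2 units. These locus numbers carry no gene symbol in the tables used, so no role is given for them.

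On the lower side the 12 genes had changes of -2.42 to -1.27 (SE 0.35 to 0.75) and adjusted p of 0.72 to 1.0. Against the same WT arrays, their changes were -2.09 to 0.57 in phyA and -1.83 to 0.46 in phyB. The smallest p of all named genes belonged to AT2G19970, at 9.37 and 10.15 in phyAphyB, against 11.52 and 11.93 in WT, a change of -1.96 (SE 0.39, limma adjusted p = 0.72). It was at a similar distance from WT in phyA (-1.70) and phyB (-1.83), which share those WT arrays. NDB3, an alternative NAD(P)H dehydrogenase of the mitochondrial inner membrane, had 9.82 and 10.16 in phyAphyB, against 11.38 and 11.19 in WT, a change of -1.29 (SE 0.37). AT5G57785 had 12.03 and 11.22 in phyAphyB, against 13.68 and 12.76 in WT, a change of -1.59 (SE 0.41). AT3G61930 had 10.53 and 10.80 in phyAphyB, against 12.27 and 11.68 in WT, a change of -1.31 (SE 0.35) beside -0.27 in phyA and -0.62 in phyB. A probe set of nad5, a mitochondrion-encoded subunit of respiratory complex I, had the lowest change on this side, with intensities of 41 and 237 in phyAphyB, against 1064 and 532 in WT (change -2.42, SE 0.75). Without phyAphyB replicate 1, the dimmest of these arrays, it was -1.52. The changes of AT2G04500 (-1.48) and AT1G43040 (-1.58) were both -0.91 without WT replicate 1. The other 5 were AT1G61840 (-1.37), AT5G60400 (-1.27), AT1G63240 (-1.27), AT3G26550 (-1.34) and AT1G61160 (-1.55), each in log2 units.

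**Figure D3:**
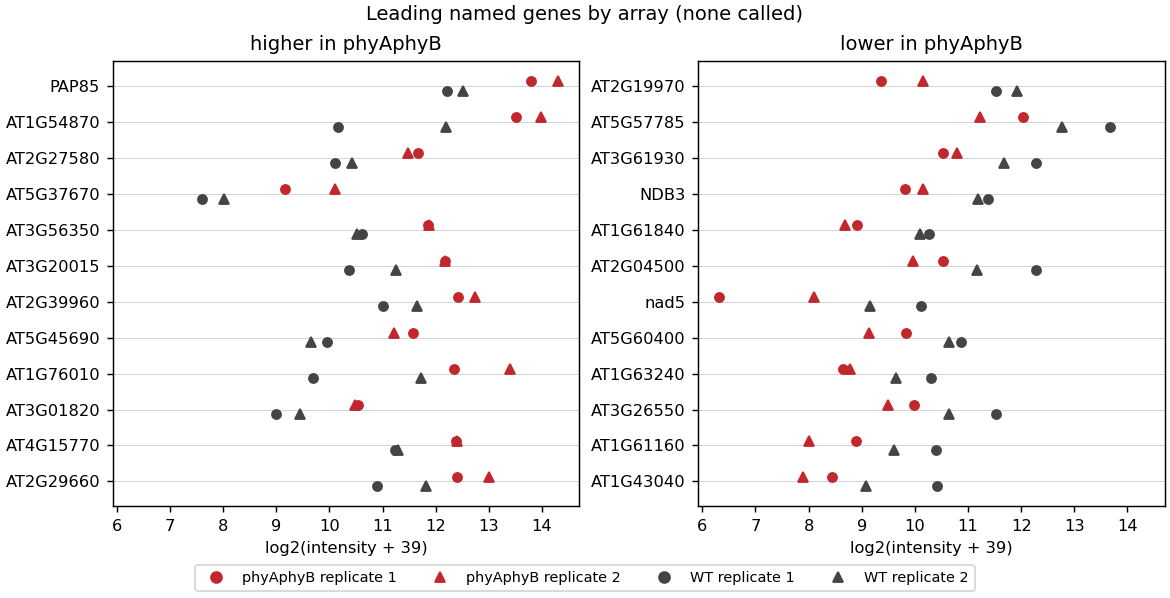
Level as log2(intensity + 39) of the 12 leading named genes on the higher side (left) and on the lower side (right) in each phyAphyB array (red) and each WT array (grey), with circles for replicate 1 and triangles for replicate 2. By the rule that chose them the red and grey points of a gene do not overlap; the spread of the grey points is widest at AT1G54870 and AT1G76010, where WT replicate 1 is the lower.

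Genes were then grouped by role, in 32 lists taken by symbol, of which 26 had at least 3 measured genes, with 1 probe set per gene. No member of any list was called, so the lists are described by counts and medians beside those of all probe sets, where the median change was 0.04 and 17.0% of probe sets had both phyAphyB arrays above both WT arrays and 13.3% below. The median was positive in 12 lists and negative in 14. Leaving out 1 of the 4 phyAphyB and WT arrays, whichever it was, turned the sign of 4 to 6 medians, and in 14 of the 26 lists at least 1 of these turned it. A leave-out range below gives the lowest and the highest median with 1 of those 4 arrays left out. Single genes also moved with 1 array. A count was made over 101 genes and probe sets described here and not called, without psbN, psbA, psbD and psbB. Of these 101, 62 had a change that moved by over 1.5 times without 1 of the 4 arrays. That was so for 20 without phyAphyB replicate 1, 24 without phyAphyB replicate 2, 48 without WT replicate 1 and 36 without WT replicate 2.

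Light signalling had few genes with a probe set of their own, 4 of them measured, with a median change of -0.13 (leave-out range -0.15 to -0.05) and 2 changes of each sign. FHL, a partner of FHY1 that carries phytochrome A into the nucleus, stood at 11.53 and 10.98 in phyAphyB, against 11.54 and 11.70 in WT, a change of -0.37 (SE 0.36). The first phyAphyB array and the first WT array were almost level, so that separation is slight.

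Auxin response genes leaned lower. Of 8 measured, 5 had a negative change and 4 lay below WT in both arrays, with none above, and the median was -0.32. In the single mutants, against the same WT arrays, the median was -0.25 in phyA and -0.38 in phyB. GH3.17, an enzyme that couples auxin to an amino acid, stood at 11.89 and 12.02 in phyAphyB, against 12.53 and 12.57 in WT, a change of -0.59 (SE 0.33, limma adjusted p = 1.0). IAA29, a repressor of auxin responses, had 11.80 and 11.66 in phyAphyB, against 12.46 and 12.07 in WT (-0.54, SE 0.33, and -0.34 without WT replicate 1). Another such repressor, IAA34, had 9.25 and 8.30 in phyAphyB, against 9.45 and 9.44 in WT (-0.67, SE 0.48, and -0.19 without phyAphyB replicate 2). LBD16, a transcription factor of lateral root formation that auxin induces, had 10.42 and 10.55 in phyAphyB, against 10.57 and 11.31 in WT (-0.45, SE 0.44, and -0.08 without WT replicate 2). These 4 are the members that did not overlap. Against them, WES1, which like GH3.17 couples auxin to amino acids, had 13.63 and 13.85 in phyAphyB, against 13.11 and 13.74 in WT (0.32, SE 0.44, and 0.0 without WT replicate 1). By array the median of the list relative to the WT mean was -0.33 and -0.26 in phyAphyB, against -0.01 and 0.01 in WT, so the phyAphyB arrays were both below both WT arrays. The leave-out range was -0.33 to -0.14, with the value nearest 0 without WT replicate 2.

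Gibberellin genes leaned the other way, with 4 measured, 3 positive changes and a median of 0.43. It was 0.25 without WT replicate 1, 0.82 without WT replicate 2, 0.57 without phyAphyB replicate 1 and 0.30 without phyAphyB replicate 2. By array it was 0.30 and 0.57 in phyAphyB, against -0.28 and 0.28 in WT, so that phyAphyB replicate 1 was nearly level with WT replicate 2. Against the same WT arrays the median change was 0.72 in phyA and 0.19 in phyB. The list holds the gibberellin receptors GID1A, GID1B and GID1C, soluble proteins that trigger the breakdown of DELLA repressors once gibberellin is bound. GID1B had intensities of 987 and 1711 in phyAphyB, against 529 and 855 in WT, a log2 change of 0.91 (SE 0.49, and 0.58 without WT replicate 1). GID1C had 9.92 and 10.18 in phyAphyB, against 9.36 and 9.84 in WT (0.45, SE 0.39, and 0.21 without it). GID1A had 11.36 and 11.63 in phyAphyB, against 10.53 and 11.61 in WT, where the groups overlapped, and its change of 0.42 (SE 0.46) was -0.11 without WT replicate 1. In none of the receptors did the change pass the test (limma adjusted p = 1.0 each).

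Cell wall genes were split. Of 19 expansins and xyloglucan-modifying enzymes, proteins that loosen the wall in growing cells, 9 changes were positive and 10 negative, 7 genes lay above WT in both arrays and 4 below, and the median was -0.00. It was 0.44 without WT replicate 2, -0.04 without WT replicate 1, and 0.15 and 0.31 without phyAphyB replicate 1 and 2. The range of changes was wide, -0.94 to 1.53, and the alpha-expansins and expansin-like genes named here stood at opposite ends. More members are named than the 3 with the smallest p, and they were chosen with their values known. The contrast is thus a description of these genes only. EXPA15 had 10.88 and 10.64 in phyAphyB, against 9.57 and 10.07 in WT (0.94, SE 0.41). EXPA20 had 10.76 and 10.62 in phyAphyB, against 10.02 and 9.77 in WT (0.79, SE 0.36). EXLA1 had 13.26 and 12.56 in phyAphyB, against 14.27 and 13.32 in WT (-0.89, SE 0.42, and -0.41 without WT replicate 1). EXLA3 had 8.82 and 8.24 in phyAphyB, against 9.67 and 9.16 in WT (-0.89, SE 0.47). EXLB1 had a change of -0.94 (SE 0.46, and -0.54 without it), with overlap between the groups. Those signs held without WT replicate 1, which set most of the value of 3 further alpha-expansins. EXPA7, an expansin of root hairs, had 9.46 and 9.23 in phyAphyB, against 7.11 and 9.03 in WT, and its change of 1.28 was 0.32 without WT replicate 1. EXPA8 had 14.47 and 14.48 in phyAphyB, against 12.06 and 14.32 in WT (1.28, and 0.15 without that array). EXPA4 had 11.74 and 12.71 in phyAphyB, against 9.13 and 12.26 in WT (1.53, and -0.04 without it); without WT replicate 2 its change was 3.10 and called (limma adjusted p = 0.046). In these 3 genes WT replicate 2 was close to the phyAphyB arrays and WT replicate 1 was far below.

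Of 31 other cell wall genes 18 changes were positive and 13 negative, 4 genes lay above WT and 8 below, and the median was 0.05 (-0.01 after quantile normalization and -0.08 after median centring), with a leave-out range of -0.17 to 0.09. ATPMEPCRD, a pectin methylesterase, had 14.53 and 15.39 in phyAphyB, against 11.05 and 14.72 in WT. Its change of 2.08 (SE 0.92) was 0.24 without WT replicate 1, and 3.91 and called without WT replicate 2 (limma adjusted p = 0.019). PME61, of the same enzyme family, had 11.45 and 11.68 in phyAphyB, against 10.01 and 11.21 in WT (0.96, and 0.35 without that array). TBL45, of a family that adds acetyl groups to wall polysaccharides, had 12.64 and 13.03 in phyAphyB, against 13.61 and 13.42 in WT, a change of -0.67 (SE 0.32).

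Plastid-encoded genes, all 69 of which passed the filter, had 56 positive and 13 negative changes. In 23 of them (33.3%) both phyAphyB arrays lay above both WT arrays and in 1 (1.4%) below, beside 17.0% and 13.3% of all probe sets. The median change was 0.28, which came to 0.17 with WT replicate 1 left out and to 0.47 with WT replicate 2 left out. Genes of 1 transcript unit share their RNA, so they are not separate observations. Subunits of the photosystems stood highest with all arrays. The 15 genes of photosystem II, which takes electrons from water, had a median of 0.92, with 11 positive changes and 6 genes above WT in both arrays. The 5 genes of photosystem I, which passes electrons on to ferredoxin, also had a median of 0.92, with 5 positive changes and 3 genes above WT. Without WT replicate 1 the 2 medians were 0.51 and 0.69, and without phyAphyB replicate 2 they were 0.52 and 0.28, where that of the cytochrome b6f complex was 0.55. Against the same WT arrays the single mutants had medians of 1.19 in phyA and 0.95 in phyB for photosystem II. For photosystem I they were 1.22 and 1.26 in the same order. These medians were thus no lower than those of the double mutant. By contrast the 10 genes of the NDH complex, which returns electrons to the plastoquinone pool, had 6 positive and 4 negative changes, and their median of 0.10 turned to -0.03 after median centring. It was 0.34 without WT replicate 1, -0.09 without WT replicate 2, -0.05 without phyAphyB replicate 1 and 0.40 without phyAphyB replicate 2. The 6 genes of ATP synthase had 6 positive changes and a median of 0.38, which was -0.05 without WT replicate 1. Medians were 0.20 for 6 genes of the cytochrome b6f complex, 0.23 for 4 genes of the plastid RNA polymerase, 0.27 for 7 genes of the large ribosomal subunit and 0.23 for 8 of the small. Each of these 4 turned with at least 1 array. The cytochrome b6f median was -0.13 without WT replicate 2 and -0.15 without phyAphyB replicate 1, that of the RNA polymerase 0.10 without WT replicate 1 and -0.04 without phyAphyB replicate 1. The ribosomal medians were -0.12 and -0.03 without WT replicate 1, and that of the large subunit was -0.21 without phyAphyB replicate 2.

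Among single plastid genes psbJ, for a small subunit of photosystem II, stood at 12.89 and 14.20 in phyAphyB, against 10.44 and 12.40 in WT, a change of 2.12 (SE 0.66, limma adjusted p = 1.0) that was 1.14 without WT replicate 1. In the same transcript unit, psbE, for a subunit of cytochrome b559, had 11.77 and 14.31 in phyAphyB, against 10.35 and 12.16 in WT (1.79, SE 0.80), with overlap between the groups. The gene psbL of that unit had 11.95 and 13.53 in phyAphyB, against 10.81 and 11.80 in WT (1.43, SE 0.73). All 3 differed by more than 1 log2 unit between the 2 phyAphyB arrays. Without phyAphyB replicate 2 the changes were 1.47 for psbJ, 0.52 for psbE and 0.64 for psbL, and without WT replicate 1 those of psbE and psbL were 0.89 and 0.94. The reaction centre gene psaA of photosystem I had intensities of 1076 and 9646 in phyAphyB, against 424 and 2004 in WT, and its log2 change of 1.76 (SE 0.91) was 0.20 without phyAphyB replicate 2. The photosystem II gene psbI had 13.64 and 14.99 in phyAphyB, against 13.05 and 12.98 in WT, and its change of 1.3 (SE 0.59) was 1.34 without WT replicate 1. The other reaction centre gene, psaB, had 15.15 and 15.97 in phyAphyB, against 14.52 and 14.76 in WT (0.92, SE 0.54, and 0.79 without that array). The small subunit gene psaJ had 13.35 and 12.42 in phyAphyB, against 12.16 and 11.58 in WT (1.02, SE 0.41, and 1.31 without that array). In these 3 genes every phyAphyB array was above both WT arrays, and leaving out WT replicate 1 moved the change by less than 1.5 times. Leaving out a phyAphyB array moved it further, to 0.63 for psbI and 0.51 for psaB without phyAphyB replicate 2 and to 0.55 for psaJ without phyAphyB replicate 1. In petB, for cytochrome b6, levels were 15.24 and 15.15 in phyAphyB, against 13.56 and 14.80 in WT, and the change of 1.01 (SE 0.41) was 0.39 without WT replicate 1. In cemA, for a protein of the plastid envelope, levels were 13.70 and 14.04 in phyAphyB, against 12.36 and 13.39 in WT (0.99, and 0.48 without that array). In atpB, for a subunit of ATP synthase, they were 14.40 and 15.70 in phyAphyB, against 11.85 and 15.08 in WT (1.58, and -0.03 without that array). For rbcL, the large subunit of Rubisco, they were 11.14 and 10.56 in phyAphyB, against 10.38 and 10.45 in WT, a change of 0.43 (SE 0.35). Of these genes psbL, psbI, psaA, psaB, atpB and rbcL were chosen after their values were seen, and all plastid genes named so far had positive changes. The 4 photosystem II genes with negative changes were psbN (-0.57), psbA (-0.45), psbD (-0.30) and psbB (-0.19). Without WT replicate 1 these were -0.25, -0.03, -0.36 and -0.38 in the same order, and in none did both phyAphyB arrays lie below both WT arrays.

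**Figure D4:**
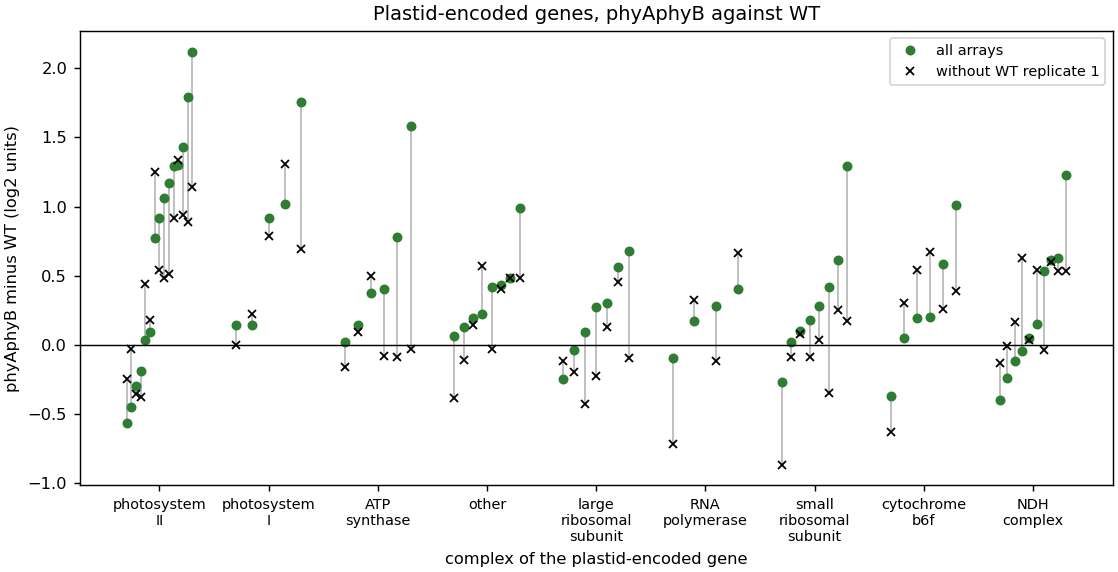
Change between phyAphyB and WT (log2 units) of the 69 plastid-encoded genes, grouped by complex in order of the median and sorted within each group, over all arrays (green circles) and without WT replicate 1 (crosses), joined by a grey line. Photosystem II and photosystem I have medians of 0.92 over all arrays; for ATP synthase the median of 0.38 is -0.05 without WT replicate 1.

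Beside the double mutant, the plastid-encoded list had median changes of 0.70 in phyA and 0.77 in phyB against the same WT arrays. By array, relative to the WT mean, the medians were 0.38 and 0.25 in phyAphyB, 0.15 and 1.19 in phyA, and 0.04 and 1.51 in phyB, against -0.16 and 0.16 in WT. The 2 phyAphyB arrays were thus close to each other, between the low and the high array of either single mutant.

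Nuclear genes for photosynthesis did not follow one direction. Of 9 photosystem and light harvesting genes 6 changes were positive, 2 genes lay above WT and 1 below, and the median was 0.16 (0.03 after median centring). It was -0.10 without phyAphyB replicate 1 and 0.02 without WT replicate 2. LHCB4.2, of the inner light-harvesting antenna, had 13.40 and 13.67 in phyAphyB, against 12.50 and 13.32 in WT, a change of 0.62 (SE 0.37) that was 0.21 without WT replicate 1. PSBY, a small photosystem II protein, had 13.94 and 13.90 in phyAphyB, against 13.51 and 13.47 in WT (0.43, SE 0.34), with little spread in either group. PSAN, a subunit of photosystem I, had 13.32 and 12.87 in phyAphyB, against 13.93 and 13.56 in WT (-0.65, SE 0.32). Of 3 Calvin cycle genes, RCA, which activates Rubisco, had 14.51 and 14.95 in phyAphyB, against 13.24 and 14.28 in WT (0.97, SE 0.42, and 0.45 without WT replicate 1). PRK and SBPASE, which regenerate the CO2 acceptor, stood at -0.16 and -0.11, and at 0.04 and 0.16 without that array. Changes were positive in all 8 genes of chlorophyll and haem synthesis with intensities as deposited, at a median of 0.14 (0.01 after median centring, and -0.01 without phyAphyB replicate 2), and 2 lay above WT in both arrays. Those were HEME2, at 12.70 and 12.60 in phyAphyB, against 12.27 and 12.54 in WT, and GSA1, at 12.92 and 12.89 in phyAphyB, against 12.71 and 12.72 in WT. Without WT replicate 1 their changes of 0.24 and 0.19 were 0.11 and 0.19. PORB, which makes chlorophyllide in light, differed in sign with the scaling, at 0.01 with intensities as deposited and -0.12 after median centring.

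Mitochondrion-encoded genes were split, with most of the separated ones lower. Of 11 measured, 5 lay below WT in both arrays (45.5%) and 2 above (18.2%), with 5 positive and 6 negative changes and a median of -0.09. The median was -0.18 without WT replicate 1, -0.35 without WT replicate 2, -0.35 without phyAphyB replicate 1 and -0.26 without phyAphyB replicate 2. The members with the smallest p encode subunits of respiratory complex I. For nad9 levels were 8.86 and 7.71 in phyAphyB, against 9.49 and 9.32 in WT, a change of -1.12 (SE 0.55, and -0.54 without phyAphyB replicate 2). For nad6 they were 9.40 and 9.31 in phyAphyB, against 10.17 and 10.10 in WT (-0.78, SE 0.51). The nad5 probe set kept for the list had 9.29 and 9.65 in phyAphyB, against 10.28 and 9.71 in WT (-0.53, SE 0.45, and -0.25 without WT replicate 1). For cox2, of respiratory complex IV, they were 8.34 and 9.21 in phyAphyB, against 9.46 and 9.22 in WT (-0.57, SE 0.48, and -0.13 without phyAphyB replicate 1). For nad9 and nad6 the changes were 0.89 and 0.58 in phyB against the same WT arrays, and -0.11 and 0.03 in phyA. The phyB arrays were unlike here, as the list median relative to the WT mean was 0.13 in phyB replicate 1 and 1.34 in phyB replicate 2. The GAPDH 3'/5' ratio of phyB replicate 2 was 7.87, and its part in these values was not tested.

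Dehydration genes were mixed. Of 10 measured genes of abscisic acid and dehydration responses 4 changes were positive and 6 negative, with a median of -0.16 that was 0.08 without WT replicate 1 (leave-out range -0.28 to 0.08). The late embryogenesis abundant gene LEA had 11.19 and 11.54 in phyAphyB, against 10.08 and 10.71 in WT (0.97, SE 0.39). The dehydrins, proteins that protect cells as they lose water, lay on the other side. LTI30 had intensities of 4678 and 3440 in phyAphyB, against 5253 and 8174 in WT (log2 change -0.70, SE 0.41). COR47 had log2 levels of 14.53 and 15.15 in phyAphyB, against 15.63 and 15.43 in WT (-0.69, SE 0.41). Of the stress transcription factors, STZ, a zinc finger repressor, had 9.83 and 9.45 in phyAphyB, against 8.87 and 8.90 in WT (0.75, SE 0.42), in a list of 6 with a median of 0.09 that was -0.03 under either other scaling and -0.02 without phyAphyB replicate 2.

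Family 1 glycosyltransferases, enzymes that add sugars to hormones and to defence and wall compounds, shared the highest median of the 26 lists, 0.43, with the gibberellin list. Of 28 measured, 22 changes were positive, 10 genes lay above WT in both arrays (35.7%) and 1 below (3.6%). The median was 0.06 without WT replicate 1, 0.58 without WT replicate 2, 0.73 without phyAphyB replicate 1 and 0.17 without phyAphyB replicate 2. The array medians were 0.17 and 0.73 in phyAphyB, against -0.14 and 0.14 in WT, so phyAphyB replicate 1 was nearly level with WT replicate 2. Against the same WT arrays the median change was 0.34 in phyA and 0.26 in phyB. UGT84A3, which forms glucose esters of hydroxycinnamic acids, had 9.69 and 10.39 in phyAphyB, against 8.94 and 8.96 in WT, a change of 1.09 (SE 0.45) in the double mutant, beside 0.12 in phyA and 1.00 in phyB. UGT72E2, which acts on lignin precursors, had 10.90 and 11.09 in phyAphyB, against 9.92 and 10.49 in WT (0.79, SE 0.37, and 0.50 without WT replicate 1). UGT71C2 had 9.54 and 10.37 in phyAphyB, against 8.84 and 9.21 in WT (0.92, SE 0.46). UGT85A4 had 10.29 and 10.03 in phyAphyB, against 7.39 and 9.46 in WT, and its change of 1.73 (SE 0.64) was 0.70 without WT replicate 1.

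Autophagy genes and RALF-like peptides stood lowest with all arrays, and both medians moved with either WT array and with either phyAphyB array left out. Of 11 autophagy genes 10 changes were negative, but only 1 gene lay below WT in both arrays. The median of -0.56 came to -0.09 with WT replicate 1 left out and to -1.07 with WT replicate 2 left out, and was -0.90 and -0.23 without phyAphyB replicate 1 and 2. The array medians were -0.23 and -0.90 in phyAphyB, against 0.42 and -0.42 in WT. Median changes in the single mutants, against the same WT arrays, were -0.46 in phyA and -0.17 in phyB. APG8A, the gene that did not overlap, encodes an ATG8 protein, which marks the membrane of autophagosomes. It had 13.97 and 13.71 in phyAphyB, against 14.62 and 14.00 in WT (-0.47, SE 0.33, and -0.16 without WT replicate 1). ATG8F had 15.48 and 15.24 in phyAphyB, against 16.83 and 15.44 in WT (-0.78, and -0.08 without WT replicate 1), and ATG8B had 12.29 and 11.64 in phyAphyB, against 13.22 and 12.12 in WT (-0.71, and -0.15 without it). All 6 RALF-like genes, which encode secreted signalling peptides, had negative changes with overlapping groups. Their median of -0.45 came to -0.09 with WT replicate 1 left out and to -0.83 with WT replicate 2 left out. It was -0.93 without phyAphyB replicate 1 and turned to 0.03 without phyAphyB replicate 2. In the single mutants the median of the RALF-like genes was -0.79 in phyA and -0.17 in phyB. RALFL24 had 11.55 and 10.59 in phyAphyB, against 12.21 and 11.47 in WT (-0.77, SE 0.42, -0.40 without WT replicate 1 and -0.29 without phyAphyB replicate 2).

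**Figure D5:**
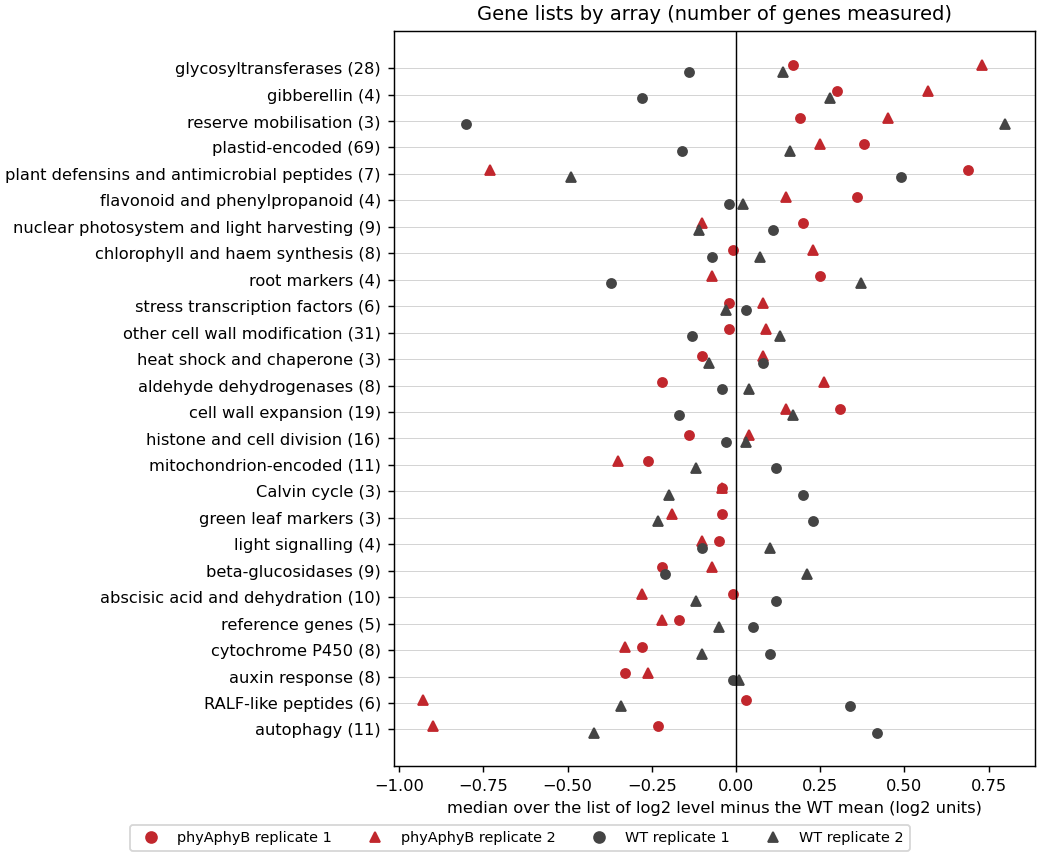
Median over each of 26 gene lists of the log2 level minus the WT mean of the gene, in each phyAphyB array (red) and each WT array (grey), with circles for replicate 1, triangles for replicate 2 and the number of measured genes in brackets. Lists run from the highest median change (glycosyltransferases, 0.43) to the lowest (autophagy, -0.56); for autophagy the WT arrays lie at 0.42 and -0.42, one on either side of phyAphyB replicate 1 at -0.23.

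The remaining lists gave smaller or mixed values. The 7 defensins and related peptides had a median of 0.26, with a leave-out range of -0.73 to 0.69. Of these, PDF2.1 had 11.67 and 10.99 in phyAphyB, against 10.69 and 9.31 in WT, a change of 1.33 (SE 0.49) that lay beside 2.41 in phyB and -0.29 in phyA and was 0.64 without WT replicate 2. LCR67 of the same list had a change of 0.70, with overlap, and 0.22 without WT replicate 2. Of 16 histone and cell division genes 7 changes were positive and 9 negative, with a median of -0.03 (leave-out range -0.16 to 0.04). AUR2, an Aurora kinase of dividing cells, had 10.26 and 9.71 in phyAphyB, against 11.07 and 10.80 in WT (-0.95, SE 0.44). Genes of the same histone, H2B, lay on both sides, HTB1 at 11.81 and 11.73 in phyAphyB, against 11.02 and 11.26 in WT (0.63), and HTB11 at 12.88 and 12.60 in phyAphyB, against 13.74 and 12.98 in WT (-0.62, and -0.24 without WT replicate 1). Of 8 aldehyde dehydrogenases, enzymes that oxidise aldehydes to acids, 3 lay below WT and none above, with a median of 0.00 (0.04 after quantile normalization and -0.12 after median centring) and a leave-out range of -0.22 to 0.26. ALDH6B2, which takes part in valine breakdown, had 14.23 and 14.09 in phyAphyB, against 14.90 and 14.77 in WT (-0.68, SE 0.32), ALDH7B4 stood at -0.56 (-0.20 without WT replicate 1) and ALDH3F1 at -0.50 (-0.32 without it). Of 8 cytochrome P450 genes 4 lay below WT and 2 above (median -0.26, leave-out range -0.37 to -0.16), and of 9 beta-glucosidases 1 lay below (median -0.15, leave-out range -0.22 to -0.04). PYK10, the beta-glucosidase of root endoplasmic reticulum bodies, stood at -0.20 with intensities as deposited, 0.06 after quantile normalization and 0.17 without WT replicate 1. The 4 measured flavonoid and phenylpropanoid genes had a median of 0.24 (leave-out range 0.15 to 0.36), the 3 of heat shock and chaperone a median of -0.00 (-0.14 to 0.13) and the 3 of reserve mobilisation 0.31 (0.05 to 0.68).

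Genes often used as references also spread to both sides of 0. Of 5 measured, GAPC2 had 15.66 and 15.64 in phyAphyB, against 15.18 and 15.29 in WT (0.42, SE 0.30), TUB6 had 14.11 and 14.23 in phyAphyB, against 14.60 and 14.50 in WT (-0.37, SE 0.33), and PEX4 stood at -0.62 (SE 0.45), -0.23 without WT replicate 1. The median of the list was -0.19, -0.21 after quantile normalization and -0.32 after median centring, with a leave-out range of -0.42 to -0.17. Of the root markers 1 of 4 lay above WT and 1 below, with a median of 0.09 (-0.03 after median centring, leave-out range -0.07 to 0.33), and of the 3 green leaf markers RCA lay above and HPR, hydroxypyruvate reductase of photorespiration, below, at 13.63 and 13.49 in phyAphyB, against 14.18 and 13.73 in WT. The change of HPR was -0.40, and -0.17 without WT replicate 1. No member of these marker lists was called, and their part in the other lists was not tested.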

How the data were processed

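The authors deposited linear intensities as whole numbers, with a 2% trimmed mean of 2500.2 to 2500.3 on every array. For the summary software and the genome build, the names are not given in the sources used here. With 2 arrays per genotype, their number limits the precision. Arrays were grouped by the genotype in the labels, and both phyAphyB and both WT arrays were compared.

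From the deposited intensity, log2(intensity + 39) was taken, the dimmest 40% of probe sets by mean were left out, and 1 mean for each genotype was estimated over all 8 arrays in limma 3.58.1 under R 4.3.3, with variances moderated along intensity (4 residual and 5.87 prior degrees of freedom). Tests were two-sided, with Benjamini-Hochberg adjustment over 13647 probe sets and calls at an adjusted p under 0.05. The fit was also run on simulated data in which all arrays of a probe set had the same spread. Such data hold no array that stands apart as WT replicate 1 did, so they do not test that case.

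Of 22746 probe sets, 13513 named 1 gene in the platform annotation, 503 named several and 8730 were not listed, and 13436 of the 13513 were found in RefSeq's gene table. Named genes were all called probe sets, the 12 with the smallest p in each direction among probe sets naming 1 gene whose groups did not overlap, and up to 3 members of each list by p. More than 3 members are named for the auxin, cell wall expansion, glycosyltransferase, plastid-encoded and mitochondrion-encoded lists. Not all of these exceptions are marked in the text. Lists held the brightest probe set of each gene, and 6 of the 32 had under 3 measured genes and are not described. Members and lists were chosen with earlier results of these data known. Alternatives were other pseudocounts, filters, scalings, blocks and left-out arrays.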

Additional observations from a re-analysis of the deposited data

How the results depend on the processing

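The count of called probe sets was 3 with a pseudocount of 200, without a filter and with quantile normalization, and 2 with 60% of probe sets left out, with median centring, without an intensity trend and with only the phyAphyB and WT arrays in the fit. Without a filter 2 of the 3 calls were among these, and the split was 1 higher and 2 lower. Probe set 253767_at was not called with a pseudocount of 1 (adjusted p = 0.072), without a filter (0.078), with median centring (0.52), without an intensity trend (0.14) and with only the phyAphyB and WT arrays (0.76). Probe set 248066_at was among those filtered out, and so not tested, with 60% left out and with a pseudocount of 1. The count was 1 with a pseudocount of 1 and 1 without both arrays of high GAPDH ratio (WT replicate 1 and phyB replicate 2). Leaving out 1 array gave 2 to 30 calls, 30 of them without WT replicate 2 (29 higher), where WT replicate 1 alone stands for WT and is assumed to vary like the other groups. Probe set 264508_at was not called without both arrays of high GAPDH ratio (-9.07, adjusted p = 0.063).

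Same-numbered phyAphyB and WT arrays deviated together (r = 0.64 across probe sets), as did those of phyAphyB and phyA (0.60), of phyA and WT (0.42) and of phyA and phyB (0.41), but phyAphyB and phyB correlated at 0.15 and phyB and WT at -0.06, and no label says that a number pairs arrays. The replicate block over all arrays gave 3 calls, with 1089 at an unadjusted p under 0.05. With only the phyAphyB and WT arrays and the replicate block, chosen after seeing the data and with 1 residual degree of freedom, 32 were called, 26 higher and 6 lower. The calls of this fit included named genes, PAP85 (adjusted p = 0.038), AT1G54870, AT1G76010 and AT2G19970 (0.032 each), AT5G57785 (0.043), psbJ (0.024) and psbE (0.043), and the unnamed 258240_at (0.0061), 257809_at (0.024), 259224_at and 248125_at (0.032 each) and 265095_at (0.035).

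Probe sets with groups that did not overlap numbered 6698 with no filter (22746 tested), 7670 without both arrays of high GAPDH ratio and 7670 to 10119 without 1 array, where fewer arrays overlap less by construction. The number of lists with a positive median lay between 8 and 14 under all alternatives.

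Signs turned in 7 of the 101 genes and probe sets counted above when 1 array was left out. Without WT replicate 1, or without both arrays of high GAPDH ratio, the change was 0.04 for PRK, 0.16 for SBPASE, -0.11 for GID1A, -0.04 for EXPA4, -0.03 for atpB and 0.17 for PYK10. Without WT replicate 2 it was -0.37 for PRK, -0.39 for SBPASE, 0.96 for GID1A, 3.10 for EXPA4, 3.20 for atpB and -0.58 for PYK10. For PORB the lowest value was -0.22, without WT replicate 2, the highest 0.23, without WT replicate 1, and that with median centring -0.12. For PYK10 it was 0.06 with quantile normalization. The cause was not tested.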
